A study of Homo sapiens with 12 samples.

Results

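The glycolysis and lactate handling genes described here are 32 genes chosen by name from the 78894 genes of the deposited table. They cover glucose uptake, the enzymes from hexokinase to lactate dehydrogenase, lactate transport and the gate from pyruvate to the mitochondrion. They were measured in human cardiomyocytes differentiated from WTC-mEGFP-ACTN2-cl85, an established induced pluripotent stem cell line and a single clone, in which 1 copy of the sarcomeric actinin gene ACTN2 carries a green fluorescent tag. Before any treatment, all cultures had been enriched for cardiomyocytes in medium without glucose that held 10 mM lactate, and were then returned to standard medium. The 4 groups, of 3 independent cultures each and 12 libraries in all, received for 48 h 10 nM endothelin-1 together with 16 µM sacubitrilat, 10 nM endothelin-1 alone, 16 µM sacubitrilat alone, or vehicle, which the labels give as DMSO. Endothelin-1 is a vasoconstrictor peptide that enlarges cardiomyocytes, and sacubitrilat blocks neprilysin, the enzyme that breaks down natriuretic peptides and also clears endothelin-1. In the 6 single-compound libraries a second line of the description names the opposite compound. The grouping used here is that of the titles, which the treatment labels share.

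Glycolysis splits glucose into pyruvate, which is either reduced to lactate by lactate dehydrogenase or oxidised in mitochondria through pyruvate dehydrogenase. Fetal cardiomyocytes rely largely on glucose and lactate, adult ones mainly on fatty acids, and hypertrophic hearts are known to move part of the way back towards glucose use. Several steps have a form typical of striated muscle beside a ubiquitous one, such as the beta enolase ENO3 beside ENO1, the mutase PGAM2 beside PGAM1, and the insulin-responsive transporter SLC2A4 beside SLC2A1. Selection with lactate rests on the ability of cardiomyocytes to oxidise it, which most other cells share only poorly.

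Levels are CPM, counts scaled to the library total, from reads at the 3′ end of transcripts, so they were not divided by gene length. Total counts ran from 1473744 to 1781653 in endothelin-1 libraries and from 1268308 to 1953122 in sacubitrilat libraries, but from 87281 to 158791 in combined libraries and from 80844 to 316932 in vehicle libraries. The 6 deep libraries held 10.1 times the mean total of the 6 shallow ones, so 3 counts, the limit that a count of 0 allows, correspond to 1.54 CPM at the largest total and 37.1 CPM at the smallest (counting error only). Endothelin-1 against sacubitrilat (totals 1.09 to 1) and both compounds against vehicle (0.670 to 1) therefore compare libraries of like total and share no library. Each of them changes 2 compounds at once, since the first exchanges sacubitrilat for endothelin-1 and the second adds both. In either alone, a rise with endothelin-1 cannot be told apart from an effect of sacubitrilat. The average of these 2 comparisons is the endothelin-1 effect over both states of sacubitrilat. The other 4 pairwise comparisons, among them the 2 named as primary by the study, set deep libraries against shallow ones. All 15 cardiomyocyte markers had counts in every group, with summed levels of 23020 to 24261 CPM with endothelin-1, 16020 to 16743 CPM with sacubitrilat, 14891 to 26783 CPM with both and 12475 to 17245 CPM with vehicle. In these bulk samples fewer cells of a type and less RNA per cell cannot be told apart.

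The muscle enolase gene ENO3 and the glucose transporter gene SLC2A3 were the 2 members that rose with endothelin-1 averaged over sacubitrilat, and none fell. The test was edgeR's quasi-likelihood test over 11203 genes, in which a gene passed at an adjusted p under 0.05 (Benjamini-Hochberg), and 31 of the 32 members could be tested. In this averaged comparison 1.83% of all tested genes passed, and 1.01% passed as higher. Sacubitrilat averaged over endothelin-1 called none of the 31 members in edgeR, against 0.259% of all genes, and 3 had an unadjusted p under 0.05. DESeq2 called 2 there, and its share over all genes is not given here. Within the deep libraries, endothelin-1 against sacubitrilat called 12 members higher and 1 lower, against 11.2% of all genes in either direction and 6.44% as higher. The median log2 fold change of the 31 members was 0.38 there, against -0.01 over all tested genes. Within the shallow libraries, both compounds against vehicle called none of the 31 members in edgeR, against 0.179% of all genes, and 3 had an unadjusted p under 0.05. DESeq2 called 1 there, again without its share over all genes. Left-out libraries moved these counts: the averaged endothelin-1 count was 4 without vehicle replicate 2, and the 13 members of the deep comparison were 7 without endothelin-1 replicate 1 or 2 or sacubitrilat replicate 1 and 8 without sacubitrilat replicate 2. ENO3 passed in each of these fits. The share of all genes called in them is not given here, so the changed counts are not results about the members alone. If the second description line were the true one, endothelin-1 and sacubitrilat would change places, and ENO3 and SLC2A3 would be called for averaged sacubitrilat and no member for averaged endothelin-1.

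**Figure D1:**
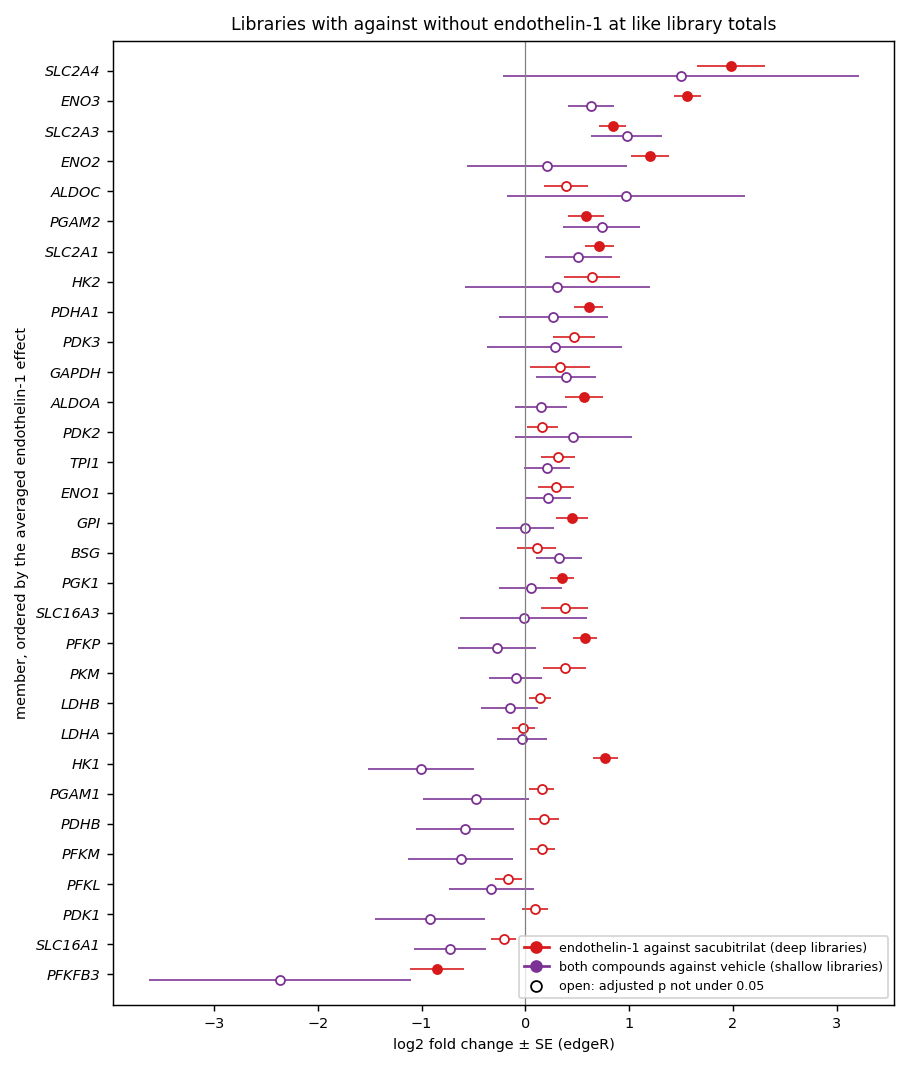
Log2 fold change with its SE for the 31 tested members, for endothelin-1 against sacubitrilat in red and both compounds against vehicle in purple, ordered by the average of both. Filled points passed an adjusted p under 0.05; ENO3 and SLC2A3 lie to the right of 0 in both comparisons, and the bars of the shallow comparison are wider.

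ENO3 (ENSG00000108515, chromosome 17, 4948092 to 4957131, plus strand, GRCh38) encodes the enolase subunit of striated muscle, which replaces ENO1 as muscle matures. It stood at 441, 417 and 415 CPM in the 3 endothelin-1 libraries, against 158, 157 and 151 CPM in the sacubitrilat libraries. It stood at 401, 356 and 422 CPM in the combined libraries, against 289, 186 and 223 CPM in the vehicle libraries. All 6 libraries given endothelin-1 were above all 6 without it, at both depths. The difference was 1.56 ± 0.13 on the log2 scale in the deep libraries (edgeR adjusted p = 1.05e-11; log2 fold changes are given ± SE throughout), 0.63 ± 0.22 in the shallow ones (edgeR adjusted p = 0.243) and 1.10 ± 0.13 averaged (edgeR adjusted p = 1.36e-06). With every library thinned to 80000 counts in 1 random draw, it was 1.58 ± 0.28 in the libraries that had been deep (edgeR adjusted p = 0.00627). In the same draw it was 1.14 ± 0.27 in the shallow ones (edgeR adjusted p = 0.0851), above the 0.63 without thinning, and 1.36 averaged (edgeR adjusted p = 0.000444). Cardiomyocyte markers were also higher in the deep pair, where 9 of 15 were higher and none lower with endothelin-1 than with sacubitrilat. Their median log2 fold change was 0.66, and 6.44% of all genes were called higher and 11.2% either way. Between both compounds and vehicle none of the 15 was called (median 0.00087), against 0.179% of all genes. When averaged, 2 were higher and none lower, against 1.01% of all genes called higher. The part of these markers in the ENO3 result was not tested. Of 8 skeletal muscle markers, the defining factors MYOD1, MYOG and MYF5 were at 0 in all 12 libraries, and the summed level was 47.1 to 55.2 CPM with endothelin-1, against 24.2 to 28.0 CPM with sacubitrilat, and 25.2 to 37.1 CPM with both, against 0 to 38.1 CPM with vehicle.

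The promoters of ENO3 and ENO1 are shown because ENO3 was called for endothelin-1 averaged over sacubitrilat, whereas ENO1, which encodes the same enzyme, was called in no comparison. RefSeq (GRCh38.p14) gives 2 start sites for ENO3, and each window of 300 bases below lies mostly upstream of a start site and ends just past it, on the strand of the gene. The windows are chr17:4950302-4950601 and chr17:4950869-4951168 for ENO3, and chr1:8878637-8878936, minus strand, for ENO1. Capitals mark GCGTG or its reverse complement, 1 of the 2 forms of the core of the hypoxia response element.
ENO3, first start site: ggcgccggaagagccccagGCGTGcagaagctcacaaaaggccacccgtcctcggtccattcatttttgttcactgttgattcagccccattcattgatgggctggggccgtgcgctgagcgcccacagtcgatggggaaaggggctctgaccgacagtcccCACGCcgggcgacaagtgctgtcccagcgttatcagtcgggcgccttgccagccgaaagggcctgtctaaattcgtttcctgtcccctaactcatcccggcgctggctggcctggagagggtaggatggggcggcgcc
ENO3, second start site: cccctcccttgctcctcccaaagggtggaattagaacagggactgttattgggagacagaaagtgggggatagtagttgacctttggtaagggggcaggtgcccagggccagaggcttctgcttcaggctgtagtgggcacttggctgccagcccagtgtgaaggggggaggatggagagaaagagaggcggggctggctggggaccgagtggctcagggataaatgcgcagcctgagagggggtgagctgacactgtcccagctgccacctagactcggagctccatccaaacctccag
ENO1: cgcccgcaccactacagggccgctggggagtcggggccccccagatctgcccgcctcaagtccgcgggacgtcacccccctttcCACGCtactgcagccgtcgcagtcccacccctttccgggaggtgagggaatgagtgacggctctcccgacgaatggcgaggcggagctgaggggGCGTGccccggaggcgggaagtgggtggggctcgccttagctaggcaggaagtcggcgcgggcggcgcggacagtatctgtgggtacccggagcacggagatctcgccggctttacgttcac
GCGTG occurred 2 times in the first ENO3 window and 2 times in the ENO1 window, and not in the second ENO3 window. The other form, ACGTG, and the E-box CACGTG, which contains it, were in none of the 3. Over all 35116 promoter windows of this length, 36.5% held GCGTG on either strand, 21.4% held ACGTG and 7.26% held CACGTG. Of the 58 windows of the 28 members with an entry, 25 (43.1%) held GCGTG, 22 (37.9%) held ACGTG and 9 (15.5%) held CACGTG, which describes letters in these windows and says nothing of binding. PGAM2 had 1 GCGTG in its window and PGAM1 none of the 3 motifs. The PGAM1 window (chr10:97427568-97427867, plus strand) lies inside the gene as GENCODE 29 places it, which starts at 97426160. Both ENO3 windows likewise lie past the GENCODE 29 gene start at 4948092. The ENO1 window also lies inside its gene, which starts at 8879250 on the minus strand. Promoters at those outer starts were not examined. SLC2A3, SLC2A4, SLC16A1 and PFKFB2 had no entry.

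The glucose transporters were higher with endothelin-1 than with sacubitrilat in the deep libraries, all 3 of them. SLC2A3 (ENSG00000059804, chromosome 12, 7919230 to 7936275, minus strand), the high-affinity transporter of neurons and of fetal tissues, stood at 88.4, 102 and 94.5 CPM with endothelin-1, against 61.3, 58.3 and 53.5 CPM with sacubitrilat, and at 137, 110.2 and 111 CPM with both compounds, against 59.9, 37.1 and 67.4 CPM with vehicle. Neither pair of groups overlapped. The shallow values rested on 12, 17.5 and 15 counts with both compounds, against 19, 3 and 11.5 counts with vehicle. The 3 counts, in vehicle replicate 2, equal the limit that a count of 0 allows. SLC2A3 was not among the members that could be tested after thinning, so its result was not checked at equal depth. The difference was 0.84 ± 0.13 with the deep libraries (edgeR adjusted p = 6.42e-06), 0.98 ± 0.34 with the shallow ones (edgeR adjusted p = 0.234) and 0.91 ± 0.18 averaged (edgeR adjusted p = 0.00348). SLC2A1, the basal transporter of most cells, stood at 80.8, 108 and 90.7 CPM with endothelin-1, against 53.6, 64.7 and 64.5 CPM with sacubitrilat, and at 149, 107 and 170.4 CPM with both, against 75.7, 198 and 87.9 CPM with vehicle. The deep groups did not overlap and the shallow ones did. It was 0.71 ± 0.14 higher in the deep libraries (edgeR adjusted p = 0.000379) and did not pass when averaged (0.61 ± 0.18, edgeR adjusted p = 0.0619). SLC2A4, the transporter that insulin brings to the surface of muscle and fat cells, stood at 17.4, 20.4 and 16.3 CPM with endothelin-1, against 8.08, 3.15 and 3.58 CPM with sacubitrilat. It differed by 1.98 ± 0.33 there (edgeR adjusted p = 2.58e-05). The shallow libraries held 2 counts of SLC2A4 with both compounds and 1 with vehicle, too few to compare.

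Hexokinases trap glucose in the cell. HK1, the form of most tissues, stood at 127, 128 and 112 CPM with endothelin-1, against 73.4, 71.7 and 85.0 CPM with sacubitrilat. It stood at 34.4, 31.5 and 22.2 CPM with both compounds, against 59.9, 24.7 and 70.3 CPM with vehicle. Endothelin-1 was above sacubitrilat in every deep library (0.77 ± 0.12, edgeR adjusted p = 9.59e-06), whereas the shallow groups overlapped and the point estimate had the other sign (-1.01 ± 0.51, edgeR adjusted p = 0.45). HK2, the inducible form of insulin-sensitive tissues, averaged 15.7 ± 2.26 CPM with endothelin-1 and 10.97 ± 4.18 CPM with sacubitrilat, 15.2 ± 3.56 CPM with both and 7.59 ± 6.58 CPM with vehicle (SD, n = 3), and passed in none of the 9 comparisons. The isomerase gene GPI averaged 402 ± 26.6 CPM with endothelin-1, against 319 ± 1.63 CPM with sacubitrilat (0.45 ± 0.15, edgeR adjusted p = 0.0475). That call was lost in 13 of 22 alternative analyses, as was that of ALDOA in the same comparison. GPI averaged 289 ± 40.0 CPM with both, against 256 ± 159 CPM with vehicle. It did not pass for endothelin-1 averaged over sacubitrilat (0.22 ± 0.16, edgeR adjusted p = 0.552).

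Phosphofructokinase commits sugar to glycolysis, and its platelet-type subunit PFKP was higher with endothelin-1 than with sacubitrilat. PFKP stood at 298, 268 and 276 CPM with endothelin-1, against 215, 188 and 209 CPM with sacubitrilat, and at 97.4, 69.3 and 107 CPM with both, against 126, 37.1 and 99.6 CPM with vehicle. The deep groups did not overlap (0.58 ± 0.11, edgeR adjusted p = 0.000416) and the shallow ones did. PFKM, the muscle subunit, stood at 110.0, 126 and 107 CPM with endothelin-1, against 115, 111 and 106 CPM with sacubitrilat (0.17 ± 0.12, edgeR adjusted p = 0.448). It was at 57.3, 25.2 and 37.1 CPM with both and 34.7, 49.5 and 99.6 CPM with vehicle, so the deep libraries exceeded every shallow one. PFKL, the liver subunit, averaged 69.2 ± 4.66 CPM with endothelin-1, 83.3 ± 10.96 CPM with sacubitrilat, 55.1 ± 19.9 CPM with both and 83.4 ± 27.3 CPM with vehicle (SD, n = 3) and passed nowhere. PFKFB3, a kinase that makes the activator of phosphofructokinase, was the 1 member lower with endothelin-1 than with sacubitrilat, at 10.1, 6.79 and 12.2 CPM against 25.7, 14.2 and 18.4 CPM (-0.85 ± 0.26, edgeR adjusted p = 0.0268). In the shallow libraries it had 1 count with both compounds and 8 with vehicle. Its cardiac relative PFKFB2 held 26 counts with endothelin-1, 20 with sacubitrilat, 0 with both and 4 with vehicle, and was too low to test.

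**Figure D2:**
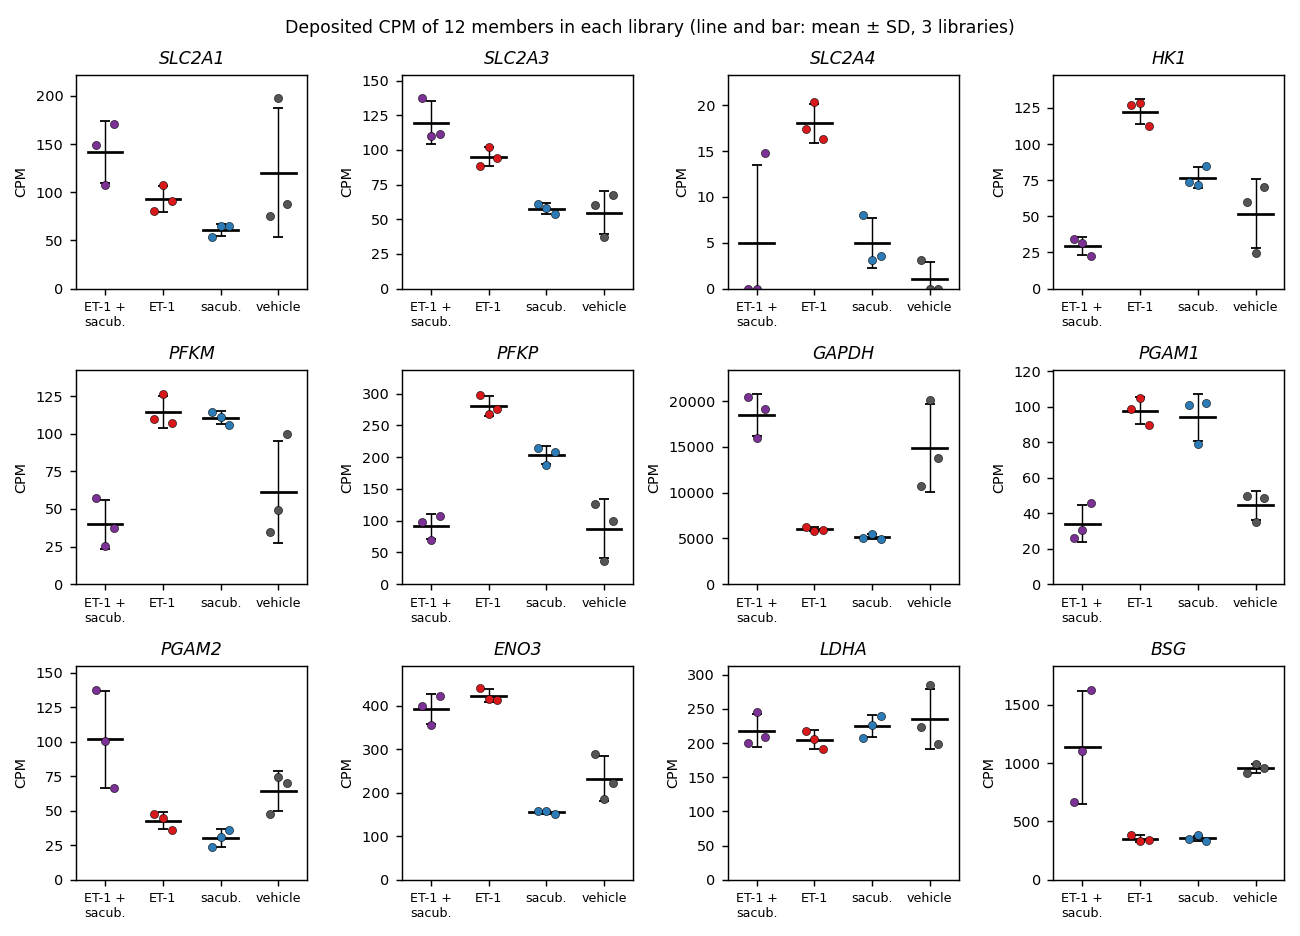
Deposited CPM of 12 members in each library, with the 4 groups side by side; points are libraries, lines and bars are the mean and SD of 3 libraries, and bars that would pass below 0 end there. ENO3 and SLC2A3 are high in both groups with endothelin-1, whereas GAPDH and BSG are high in both groups of shallow libraries and HK1, PFKM, PFKP and PGAM1 are low in them.

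Aldolase splits the sugar into 2 trioses. ALDOA, the form of muscle and most tissues, stood at 577, 583 and 582 CPM with endothelin-1, against 428, 437 and 408 CPM with sacubitrilat (0.57 ± 0.19, edgeR adjusted p = 0.0418). With both compounds it was at 329, 653 and 782 CPM, against 672, 331 and 552 CPM with vehicle, and these groups overlapped. ALDOC, the brain form, had 133 counts with endothelin-1, 101 with sacubitrilat, 4 with both and 3 with vehicle. TPI1, the triose isomerase, averaged 603 ± 19.7 CPM with endothelin-1, 524 ± 7.35 CPM with sacubitrilat, 576 ± 32.8 CPM with both and 485 ± 93.4 CPM with vehicle (SD, n = 3), and passed in none of the 9 comparisons. PGK1, the first enzyme of the pathway to yield ATP, averaged 207 ± 27.8 CPM with endothelin-1 and 174 ± 21.0 CPM with sacubitrilat (0.36 ± 0.12, edgeR adjusted p = 0.037), a call lost in 10 of 22 alternative analyses. PGK1 averaged 149 ± 14.2 CPM with both, against 156 ± 35.7 CPM with vehicle. It did not pass for endothelin-1 averaged over sacubitrilat (0.20 ± 0.16, edgeR adjusted p = 0.605).

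GAPDH (ENSG00000111640, chromosome 12, 6533927 to 6538374, plus strand), the dehydrogenase between aldolase and PGK1 and a common reference gene, followed the library total. It stood at 6249, 5849 and 5962 CPM with endothelin-1, against 5081, 5493 and 4943 CPM with sacubitrilat. It stood at 20431, 15988 and 19102 CPM with both compounds, against 10740.5, 20124 and 13733 CPM with vehicle. Every shallow library was above every deep one, and the 2 comparisons of like totals did not pass (0.33 ± 0.29 and 0.39 ± 0.29, edgeR adjusted p = 0.559 and 0.659). GAPDH took 48.9% to 50.7% of the summed member counts with endothelin-1 and 49.5% to 52.9% with sacubitrilat, against 73.1% to 82.0% with both and 65.6% to 81.5% with vehicle. BSG (ENSG00000172270, chromosome 19, 571277 to 583493, plus strand), which encodes basigin, the chaperone of the lactate transporters, had the same order. It stood at 386, 332 and 341 CPM with endothelin-1, against 347, 380.4 and 336 CPM with sacubitrilat, and at 665, 1108 and 1630.2 CPM with both, against 912, 989.6 and 961 CPM with vehicle. TPI1, the neighbour of GAPDH in the pathway, did not show that order, and the count ratio of GAPDH to TPI1 was 9.35 to 10.6 with endothelin-1 and 9.32 to 10.4 with sacubitrilat, against 27.2 to 37.9 with both and 18.4 to 50.8 with vehicle. The share of counts in long non-coding RNA genes also separated the depths, at 5.19% to 5.63% in the 6 deep libraries and 7.60% to 10.9% in the 6 shallow ones. The mitochondrially encoded share was 20.1% to 20.2% with endothelin-1 and 14.99% to 17.2% with sacubitrilat, and ranged from 11.4% to 22.1% over all 12 libraries. The part of library total and of these shares in the levels was not tested. All members together took 1.18% to 1.23% of counts with endothelin-1 and 0.999% to 1.04% with sacubitrilat, against 2.19% to 2.60% with both and 1.64% to 2.47% with vehicle. Without GAPDH and BSG these ranges were 0.553% to 0.579%, 0.452% to 0.471%, 0.382% to 0.524% and 0.358% to 0.472%, in the same order.

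**Figure D3:**
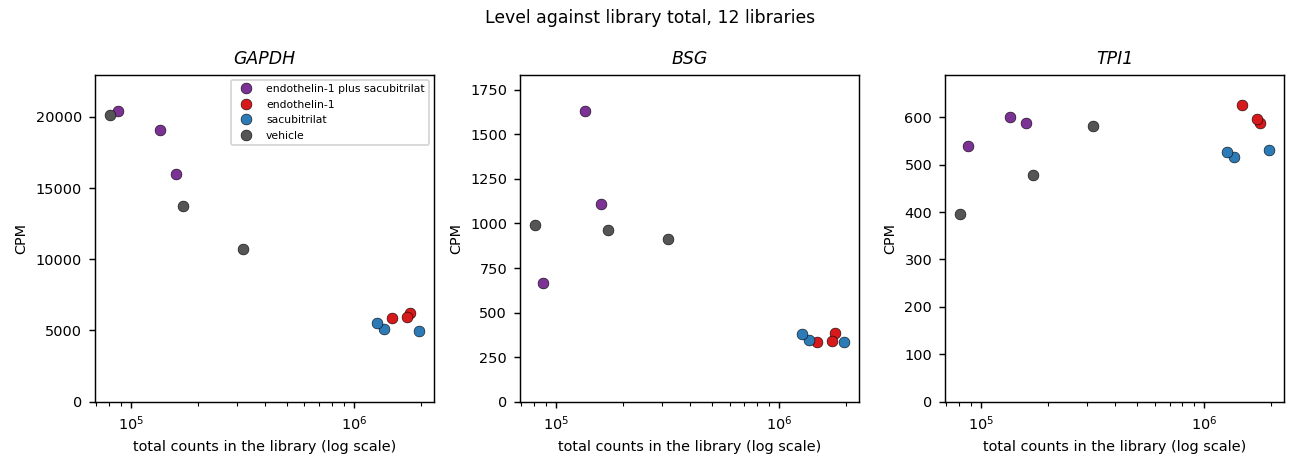
CPM of GAPDH, BSG and TPI1 against the total counts of each of the 12 libraries (log axis). GAPDH and BSG are high in all 6 libraries of low total, whereas TPI1 lies between 396 and 626 CPM across both depths.

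Phosphoglycerate mutase joins 2 kinds of subunit, and its muscle gene PGAM2 and ubiquitous gene PGAM1 differed in opposite ways between depths. PGAM2 (ENSG00000164708, chromosome 7, 44062727 to 44065587, minus strand) stood at 47.7, 44.8 and 36.1 CPM with endothelin-1, against 23.5, 30.7 and 36.4 CPM with sacubitrilat, and at 137, 101 and 66.7 CPM with both, against 47.3, 74.2 and 70.3 CPM with vehicle. The groups overlapped in both pairs. PGAM2 was higher with endothelin-1 than with sacubitrilat in the deep libraries (0.59 ± 0.17, edgeR adjusted p = 0.0217) but did not pass when averaged (0.66 ± 0.21, edgeR adjusted p = 0.0861). PGAM1 stood at 98.6, 105 and 90.0 CPM with endothelin-1, against 101, 78.9 and 102 CPM with sacubitrilat, and at 25.8, 30.4 and 45.7 CPM with both, against 49.7, 35.0 and 48.8 CPM with vehicle. It did not pass at like totals (0.16 ± 0.12 and -0.48 ± 0.51, edgeR adjusted p = 0.477 and 0.786). Of the 14 members with annotated pseudogenes, PGAM1 is the least certain in its reads: its 14 annotated pseudogene features held up to 39.3% of their joint count with PGAM1 in 1 library, whereas the 65 features of GAPDH held at most 1.55%.

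The other enolases are ENO1 and ENO2. ENO1, the ubiquitous form, averaged 754 ± 22.4 CPM with endothelin-1, 665 ± 19.0 CPM with sacubitrilat, 668 ± 148 CPM with both and 596 ± 36.9 CPM with vehicle (SD, n = 3), and passed in none of the 9 comparisons. ENO2, known as the neuronal form, stood at 48.3, 47.5 and 42.5 CPM with endothelin-1, against 25.7, 20.5 and 19.5 CPM with sacubitrilat. These groups did not overlap (1.20 ± 0.19, edgeR adjusted p = 8.76e-06), whereas 7 counts with both and 9 with vehicle were too few to compare. PKM, the pyruvate kinase of muscle and most other tissues, averaged 769.6 ± 5.29 CPM with endothelin-1, 639.8 ± 8.16 CPM with sacubitrilat, 645 ± 251 CPM with both and 687 ± 210.0 CPM with vehicle (SD, n = 3), and passed nowhere.

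Lactate dehydrogenase makes and uses lactate, with the A subunit typical of tissues that make it and the B subunit of heart, which oxidises it. LDHA stood at 218, 206 and 191 CPM with endothelin-1, against 208, 227 and 240.0 CPM with sacubitrilat, and at 199.6, 245 and 209 CPM with both, against 223, 284 and 199 CPM with vehicle. The 4 groups overlapped, and the estimates were -0.02 ± 0.11 in the deep libraries, -0.04 ± 0.24 in the shallow ones and -0.03 ± 0.13 averaged (edgeR adjusted p = 0.945, 0.979 and 0.954). LDHB stood at 216, 259 and 238 CPM with endothelin-1, against 252, 202 and 243 CPM with sacubitrilat, and at 160.4, 139 and 174 CPM with both, against 162, 192 and 182 CPM with vehicle. Against endothelin-1 alone, the combined libraries were lower (-0.62 ± 0.22, edgeR adjusted p = 0.0233), a comparison of unequal totals whose call was lost in 8 of 22 alternatives.

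Lactate crosses the membrane through SLC16A1, which carries it both ways, and SLC16A3, the form of glycolytic cells that export it. SLC16A1 stood at 146, 145 and 141 CPM with endothelin-1, against 181, 171 and 188 CPM with sacubitrilat (-0.21 ± 0.12, edgeR adjusted p = 0.293). It stood at 57.3, 113 and 74.1 CPM with both, against 179.8, 86.6 and 105 CPM with vehicle (-0.73 ± 0.35, edgeR adjusted p = 0.42). The first pair did not overlap, with endothelin-1 the lower, and the second did. SLC16A3 averaged 21.0 ± 1.14 CPM with endothelin-1, 16.9 ± 3.54 CPM with sacubitrilat, 23.1 ± 23.7 CPM with both and 30.4 ± 9.98 CPM with vehicle (SD, n = 3) and passed nowhere.

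At the mitochondrial gate, PDHA1, the catalytic alpha subunit of pyruvate dehydrogenase, stood at 58.4, 57.7 and 61.1 CPM with endothelin-1, against 42.6, 40.2 and 42.5 CPM with sacubitrilat. These groups did not overlap (0.61 ± 0.14, edgeR adjusted p = 0.00195). PDHA1 averaged 32.6 ± 8.38 CPM with both, against 28.4 ± 5.88 CPM with vehicle (SD, n = 3), from 13 and 16 counts. It did not pass for endothelin-1 averaged over sacubitrilat (0.44 ± 0.27, edgeR adjusted p = 0.473). PDHB, the beta subunit, averaged 69.3 ± 11.9 CPM with endothelin-1, 67.0 ± 12.4 CPM with sacubitrilat, 42.1 ± 27.1 CPM with both and 69.7 ± 26.5 CPM with vehicle (SD, n = 3) and passed nowhere. The 3 kinases that switch the enzyme off did not pass at like totals. PDK1 averaged 86.8 ± 11.4 CPM with endothelin-1, 88.1 ± 6.85 CPM with sacubitrilat, 27.3 ± 15.1 CPM with both and 56.4 ± 19.8 CPM with vehicle (SD, n = 3), and every shallow library was below every deep one. PDK2 averaged 45.1 ± 4.45 CPM, 43.3 ± 6.08 CPM, 32.2 ± 10.8 CPM and 23.6 ± 5.50 CPM in the endothelin-1, sacubitrilat, combined and vehicle groups, and PDK3 26.1 ± 1.08 CPM, 19.97 ± 2.68 CPM, 25.6 ± 8.56 CPM and 13.7 ± 12.3 CPM, and neither passed in any of the 9 comparisons.

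The comparisons the study names as primary set deep libraries against shallow ones, and the members went both ways in them. Endothelin-1 against vehicle called 11 members higher and 2 lower, against 23.2% of all genes in either direction. The higher ones were SLC2A3, SLC2A4, HK1, PFKM, PFKP, ALDOC, PGK1, PGAM1, ENO2, ENO3 and PDHA1, with the smallest p for PFKP (1.46 ± 0.22, edgeR adjusted p = 3.32e-06), and the lower ones GAPDH (-1.17 ± 0.30) and BSG (-1.35 ± 0.21). The call of SLC2A3 was lost in 11 of 21 alternatives and that of PGK1 in 11 of 22. The ratio for SLC2A4 rested on 89 counts against 1 (10.2 with a 95% counting interval of 1.78 to 406) and that for ALDOC on 133 against 3 (5.07, interval 1.70 to 24.9). Both compounds against endothelin-1 called 3 members higher and 8 lower, against 34.4% of all genes. PGAM2 (1.14 ± 0.30), GAPDH (1.56 ± 0.30) and BSG (1.68 ± 0.21) were higher. HK1 (-2.11 ± 0.37), PFKP (-1.73 ± 0.26), PFKM (-1.66 ± 0.37), PDK1 (-1.63 ± 0.40), PGAM1, ENO2, SLC16A1 and LDHB were lower, while ENO3 did not pass (-0.16 ± 0.18, edgeR adjusted p = 0.496). The call of ENO2 was lost in 10 of 20 alternatives and that of SLC16A1 in 11 of 22. The 2 comparisons share the endothelin-1 libraries, so their opposite signs are not independent.

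Sacubitrilat against vehicle called 4 members higher (PFKM, PFKP, ALDOC and PGAM1) and 5 lower (SLC2A1, GAPDH, PGAM2, ENO3 and BSG), against 19.9% of all genes. Without vehicle replicate 1 the count was 5 rather than 9, in a fit whose share over all genes is not given here. ENO3 differed by -0.77 ± 0.19 (edgeR adjusted p = 0.00385), a call that was lost without vehicle replicate 1 (-0.23, edgeR adjusted p = 0.585) and after thinning. Both compounds against sacubitrilat called 7 members higher (SLC2A1, SLC2A3, ALDOA, GAPDH, PGAM2, ENO3 and BSG) and 7 lower (HK1, PFKM, PFKP, PFKFB3, PGAM1, SLC16A1 and PDK1), against 35.0% of all genes. The call of PGAM1 was lost when counts of its pseudogenes were added (-0.81) and on thinning, and that of ALDOA in 8 of 22 alternatives (0.13 to 1.03). ENO3 was higher by 1.40 ± 0.19 (edgeR adjusted p = 5.51e-07) and PGAM2 by 1.73 ± 0.32 (edgeR adjusted p = 7.54e-05). The ratio for PFKFB3 rested on 1 count against 89 (0.135, interval 0.00338 to 0.773). Markers of other cell types moved with these comparisons. The summed level of 9 endoderm and liver markers was 56.7 to 92.3 CPM with endothelin-1, 51.4 to 65.5 CPM with sacubitrilat, 485 to 619 CPM with both and 207 to 668 CPM with vehicle, and that of 6 smooth muscle markers was 3698 to 3756, 2978 to 3016, 928 to 2293 and 523 to 2127 CPM in the same order. All 15 of these markers had counts in every group. The summed level of 9 fibroblast markers was 6756 to 7623 CPM with endothelin-1, 7141 to 7467 CPM with sacubitrilat, 2034 to 4604 CPM with both and 1862 to 5146 CPM with vehicle, where FAP was at 0. The part of these markers in the result was not tested. Between endothelin-1 and sacubitrilat, the summed level of 7 epicardial markers was 48.0 to 63.8 CPM against 162 to 204 CPM.

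**Figure D4:**
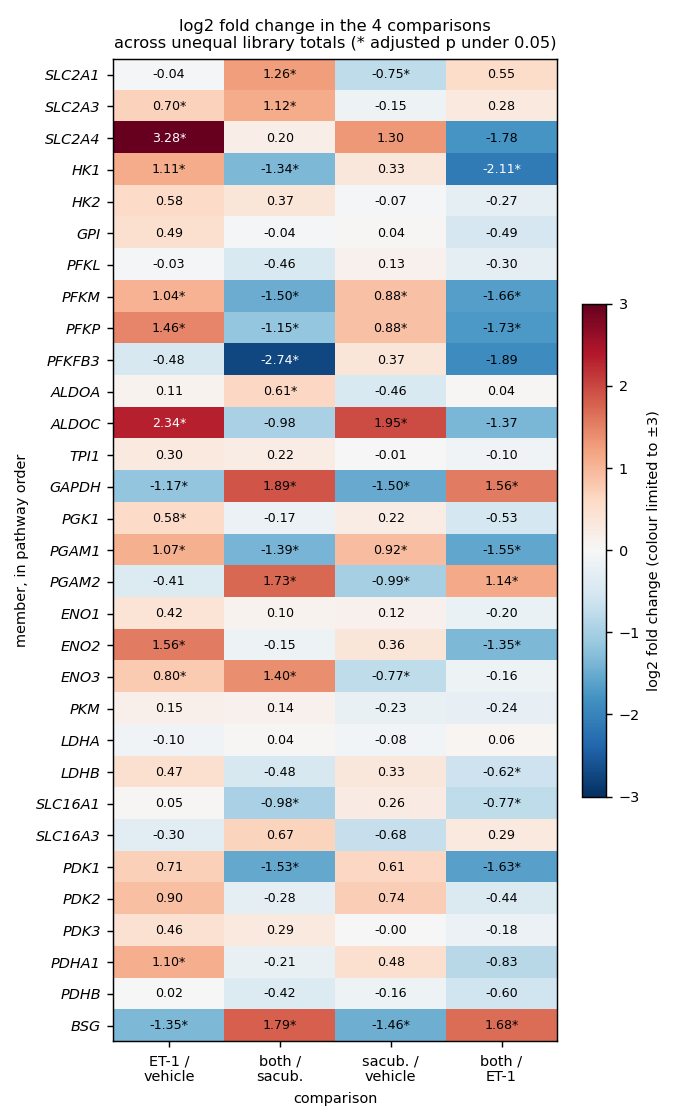
Log2 fold change of the 31 tested members, in pathway order, in the 4 comparisons of deep with shallow libraries; red is higher and blue lower in the first-named group, and a star marks an adjusted p under 0.05. ENO3 and SLC2A3 are positive in both comparisons that add endothelin-1 (the 2 columns on the left), whereas HK1, PFKM, PFKP and PGAM1 change sign between those 2 columns.

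The interaction asks whether the effect of 1 compound depends on the other, and it sets the 6 deep libraries against the 6 shallow ones, so it cannot be told apart from library total. It called 4 members higher and 9 lower, against 46.1% of all genes. Without vehicle replicate 1 it called 20 members in all, in a fit whose share over all genes is not given here. The member median was -0.44 and that of all genes -0.43. ENO3 (0.60 ± 0.26, edgeR adjusted p = 0.0549) and SLC2A3 (0.43 ± 0.37, edgeR adjusted p = 0.354) did not pass.

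Isoform shares compare genes inside a library and do not depend on its scaling, although counts of 2 genes are not corrected for where their reads fall. ENO3 made up 34.6% ± 0.53 of enolase counts with endothelin-1, against 18.5% ± 0.67 with sacubitrilat, and 37.0% ± 5.14 with both compounds, against 27.5% ± 5.28 with vehicle (SD, n = 3). The deep groups lay far apart and the shallow ones overlapped slightly. The averaged difference was 12.8 percentage points (35.8% with and 23.0% without endothelin-1; exact two-sided permutation test within strata, p = 0.005, the smallest that 400 arrangements allow, and 0.04 after adjustment over 8 tests). The other 7 tests, on ALDOC, ENO2 and LDHA and on ENO3 for sacubitrilat, had an adjusted p of 0.935 each in the same exact test. LDHA made up 46.4% ± 3.34 of lactate dehydrogenase counts with endothelin-1, against 49.3% ± 3.89 with sacubitrilat, and 57.9% ± 5.16 with both, against 56.6% ± 3.90 with vehicle. The share of PGAM2 was higher in every shallow library than in every deep one, with 30.4% ± 2.05 with endothelin-1, against 24.4% ± 4.87 with sacubitrilat, and 73.5% ± 12.8 with both, against 58.6% ± 9.59 with vehicle. PFKP made up 60.4% ± 2.63 of phosphofructokinase counts with endothelin-1, against 51.2% ± 2.43 with sacubitrilat, and 48.8% ± 2.85 with both, against 37.4% ± 19.7 with vehicle. PGAM2 and PFKP had under 20 counts in the denominator in at least 1 library and were not tested.

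**Figure D5:**
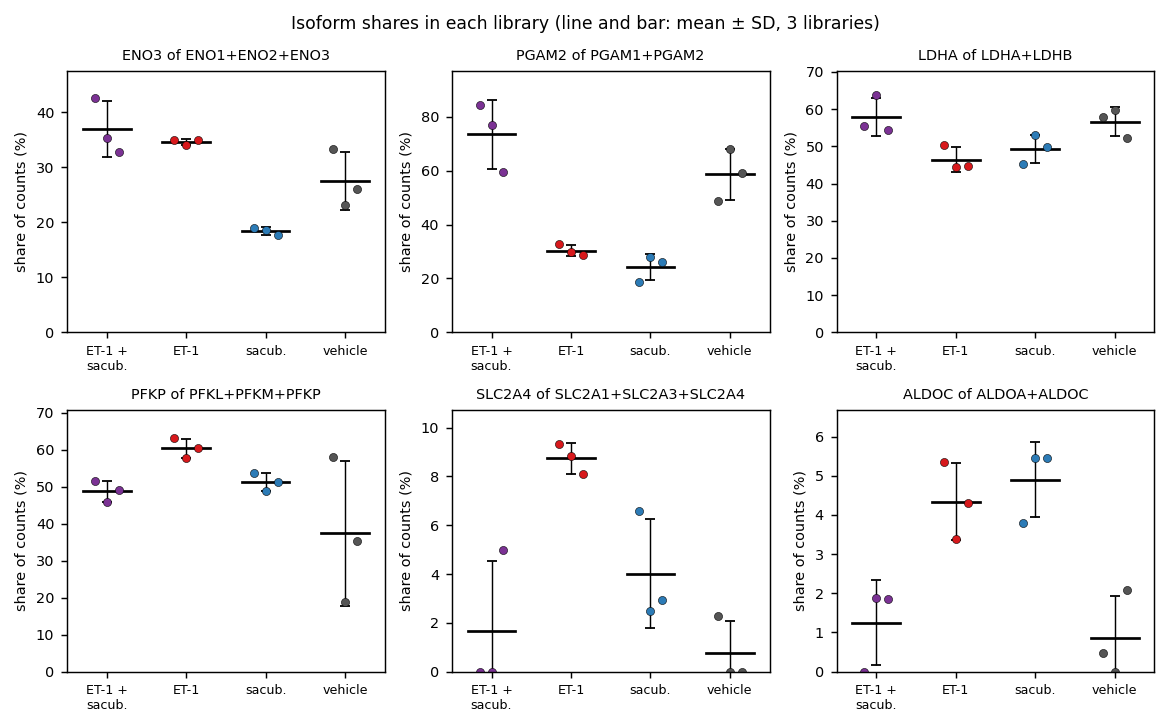
Share of 6 isoforms in the counts of their enzyme or transporter family (%), per library, with the mean and SD of 3 libraries and bars that would pass below 0 ending there. ENO3 is between 32.8% and 42.7% in the 6 libraries with endothelin-1 and between 17.7% and 33.3% in the 6 without it.

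Other genes of glucose and pyruvate metabolism were taken from a list of 50, of which 33 could be tested. For endothelin-1 averaged over sacubitrilat 1 of the 33 was called, as lower. That is 3.03% of them, against 1.83% of all genes called either way and 0.821% called lower. This gene was TXNIP, a glucose-induced arrestin that lowers glucose uptake by removing SLC2A1 and SLC2A4 from the cell surface. It stood at 293, 309 and 327 CPM with endothelin-1, against 452, 378 and 417 CPM with sacubitrilat, and at 22.9, 69.3 and 111 CPM with both compounds, against 227, 408 and 164 CPM with vehicle. Neither pair overlapped, and the endothelin-1 libraries lay within the range of the vehicle libraries. TXNIP differed by -0.997 ± 0.19 averaged (edgeR adjusted p = 0.00224), by -1.69 ± 0.36 between both compounds and vehicle (edgeR adjusted p = 0.0285) and by -2.11 ± 0.30 between both compounds and endothelin-1 (edgeR adjusted p = 7.58e-07). The call against vehicle was lost in 12 of 22 alternatives, and the averaged call was lost on thinning (-1.02, edgeR adjusted p = 0.0723). For sacubitrilat averaged over endothelin-1 none of the 33 was called in edgeR, against 0.259% of all genes.

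In the deep libraries, 10 of these 33 genes were higher and 4 lower with endothelin-1 than with sacubitrilat, against 6.44% of all genes called higher and 4.78% lower. PGM1, which links glucose to glycogen (0.79 ± 0.15), PYGM, the muscle glycogen phosphorylase (0.66 ± 0.14), and MPC1, a subunit of the mitochondrial pyruvate carrier (0.85 ± 0.19), were among those higher (edgeR adjusted p = 0.000309, 0.00111 and 0.00125). PCK2, the mitochondrial enzyme that turns oxaloacetate to phosphoenolpyruvate (-1.39 ± 0.23), and PGD and TALDO1 of the pentose phosphate pathway (-0.41 ± 0.12 and -0.46 ± 0.15) were among those lower (edgeR adjusted p = 2.34e-05, 0.0139 and 0.035). The median of the 33 genes was 0.17. Among alternative analyses, TALDO1 lost its call in 7 of 21 and PGD in 4 of 21. Endothelin-1 against vehicle called 6 of the 33 higher and 2 lower, and both compounds against endothelin-1 called 4 higher and 9 lower. These counts are 24.2% and 39.4% of the list, near the 23.2% and 34.4% called over all genes. Of 12 regulators of these genes, all tested, 4 were higher with endothelin-1 than with sacubitrilat and none lower, against the same 6.44% and 4.78% of all genes. They were PPARGC1A, a coactivator of mitochondrial genes (1.10 ± 0.22, edgeR adjusted p = 0.000377), EGLN3, an oxygen-sensing hydroxylase that is itself induced by hypoxia (1.10 ± 0.26), the nuclear receptor ESRRA (0.45 ± 0.15) and the muscle transcription factor MEF2A (0.42 ± 0.11). Among alternative analyses, ESRRA lost this call in 9 of 20, MEF2A in 3 of 22 and EGLN3 in 1 of 20. None of the 12 was called in edgeR for either averaged effect or for both compounds against vehicle. Over all genes 1.83% were called for endothelin-1 averaged, 0.259% for sacubitrilat averaged and 0.179% for both against vehicle.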

How the data were processed

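RNA was sequenced from the 3′ end in 12 libraries of human stem cell-derived cardiomyocytes, 3 independent cultures per group. The submitters' processing notes name fastp 0.24.0, featureCounts and GRCh38, and coordinates here are from GENCODE 29 on that build. Not given in the sources used here are the aligner, the strand setting and any use of molecular identifiers. The deposited table holds estimated counts, with 78.9% of nonzero values whole and fractions elsewhere, and 18 of the 32 members have a fractional count in some library, so reads shared with near-identical copies are uncertain. Without a strand setting, reads of overlapping antisense genes cannot be told apart. The CPM values are those the authors deposited, per the file headers, and equal the deposited counts over each library's total. The 92 spike-in features were at 0.

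Counts were rounded to whole numbers and tested in R 4.3.3 with edgeR 4.0.16 (TMM scaling, filterByExpr, quasi-likelihood fit of 4 groups over all 12 libraries, SE from the F statistic), after a test on simulated data. p-values were adjusted by Benjamini-Hochberg over 11203 genes with a threshold of 0.05. Isoform shares were tested by exact permutation where every library had at least 20 counts in the denominator. Alternatives were DESeq2 1.42.0, limma 3.58.1 with voom, other scaling and filters, a replicate block, thinning to 80000 counts and leaving out libraries. All 32 members are accounted for. By rule, library values are given for members with the largest called changes and for muscle and ubiquitous pairs, and other genes are named only from the fixed lists; values of further members were added after they were seen. The members and lists were chosen with earlier results of these data known. No 2 libraries were identical.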

Additional observations from a re-analysis of the deposited data

Results flagged for a closer look

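For 13 members the effect of 1 compound differed with the other compound present, by edgeR's interaction term at an adjusted p under 0.05. They are 41.9% of the 31 tested members, below the 46.1% of all genes called for the interaction, so the count does not set the members apart. Every one of these differences is also a difference between the 6 deep and the 6 shallow libraries, and the interaction cannot be told apart from library total. On the log2 scale the interaction was -3.32 ± 0.98 for ALDOC (SE), which rested on 4 counts with both compounds and 3 with vehicle. It was -2.61 ± 0.35 for PFKP, -2.54 ± 0.46 for PFKM and -2.45 ± 0.48 for HK1, the early sugar kinases. It was -2.47 ± 0.46 for the ubiquitous mutase PGAM1 and 2.14 ± 0.45 for its muscle counterpart PGAM2. It was -2.24 ± 0.50 for PDK1 and -1.31 ± 0.51 for PDHA1 at the mitochondrial gate. It was -1.03 ± 0.36 for the lactate transporter SLC16A1, -0.96 ± 0.29 for LDHB and 1.30 ± 0.37 for the transporter SLC2A1. The highest values were 3.07 ± 0.42 for GAPDH and 3.14 ± 0.29 for BSG. Among alternative analyses, PDHA1 lost this call in 8 of 19 and SLC16A1 in 6 of 21. LDHB and SLC2A1 lost it in 2 of 21 each and PGAM1 in 1 of 21, and the other flagged members never did.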

How the results depend on the processing

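Leaving aside the exchange of the single-compound labels, no member result reversed, and 34 of 75 called member results kept their call under every alternative in which they could be tested, among them ENO3 for endothelin-1 averaged (0.98 to 1.36), ENO3 (1.54 to 1.59) and ENO2 for endothelin-1 against sacubitrilat. For the other lists 3 of 83 called results reversed, all on thinning to 80000 counts: TXNIP for sacubitrilat against vehicle (-0.025), and MDH1 (-0.017) and PYGB (-0.046) for endothelin-1 against sacubitrilat. Depth limits which members can be tested, and thinning left 15. The members called were then 4 for endothelin-1 against vehicle, 5 for both against endothelin-1, 2 for sacubitrilat against vehicle, 5 for both against sacubitrilat, 1 (ENO3) for endothelin-1 against sacubitrilat, 1 (ENO3) for endothelin-1 averaged and 4 for the interaction. With no filter, 18 were called for both against endothelin-1 and 8 for endothelin-1 against sacubitrilat. With a mean of at least 50 counts, 7 were called for endothelin-1 against vehicle, 8 for endothelin-1 against sacubitrilat, 1 for both against vehicle and 4 for endothelin-1 averaged. DESeq2 called 1 for both against vehicle, 5 for endothelin-1 averaged and 2 for sacubitrilat averaged, and limma-voom called 7 for endothelin-1 against sacubitrilat. Without the 2 libraries under 100000 counts, 6 were called for endothelin-1 averaged and 2 for sacubitrilat averaged. With the labels of the single compounds exchanged, 0 were called for endothelin-1 averaged and 2 for sacubitrilat averaged, so ENO3 loses its endothelin-1 call, and by construction every endothelin-1 against sacubitrilat difference turns sign. The number of all genes called also moved with the setting, as given at the end of this section for 2 comparisons. The member counts here and below stand without that share, so they are not results about the members alone. Except where stated, the cause of these shifts was not tested.

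Leaving out each library in turn gave 9 to 17 members for endothelin-1 against vehicle, 8 to 16 for both against endothelin-1, 5 to 9 for sacubitrilat against vehicle (5 without vehicle replicate 1), 12 to 15 for both against sacubitrilat and 7 to 15 for endothelin-1 against sacubitrilat. It gave 11 to 20 for the interaction (20 without vehicle replicate 1), 2 to 4 for endothelin-1 averaged and 0 to 2 for sacubitrilat averaged (4 and 2 without vehicle replicate 2). Both against vehicle stayed at 0. The ENO3 share difference was 11.4 to 14.3 points. Without any 1 endothelin-1 library (12.7, 12.98 and 12.7) the adjusted exact permutation p missed the threshold.

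Replicate numbers recur across groups, but the 18 pairs of same-numbered libraries had correlations of -0.15 to 0.047 of their deviations, none over 0.1. No pairing of the cultures was seen, although counting error in the shallow libraries could hide one. A replicate block gave 11 members for endothelin-1 against vehicle, 10 for both against endothelin-1, 8 for sacubitrilat against vehicle, 13 for both against sacubitrilat, 10 for endothelin-1 against sacubitrilat, 0 for both against vehicle, 2 and 0 for the averaged effects of endothelin-1 and sacubitrilat, and 13 for the interaction. Over all genes, endothelin-1 against sacubitrilat called 1257 genes, with 7 on thinning and 2106 with those groups fitted alone, and endothelin-1 averaged called 205, with 10 on thinning and 540 without vehicle replicate 2.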
